A study of Mus musculus with 20 samples.

Results

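The genes of the cytosolic ribosomal proteins were followed through a time course of adenoviral VEGF-A164 in mouse flank tissue. A gene was a member if its symbol was Rpl or Rps with a number and an optional a, x or l suffix, or was Rpsa, Rplp0, Rplp1 or Rplp2, and if a probe set annotated to that symbol alone measured it. This gave 49 of the 18194 genes on the arrays with such a probe set: 22 of the large subunit, 21 of the small subunit and 6 paralogue genes (Rpl3l, Rpl7l1, Rpl22l1, Rpl39l, Rps4l and Rps27l). The members had 105 probe sets, and each gene was read by the one with the highest mean signal. The rule itself used names and mean signals, not measured changes, but it was set with earlier results of these data known.

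Ribosomes are built from a large and a small subunit, in which the proteins, named Rpl and Rps, hold the ribosomal RNA in shape. Cells make these proteins in matched amounts, and growing cells make more of them. Their mRNAs carry a pyrimidine-rich start, the 5′ terminal oligopyrimidine or TOP motif, through which the growth kinase mTORC1 and the RNA-binding protein Larp1 set how well they are translated, so mRNA level is only a part of their control. Most of these genes are expressed in every tissue, but some have paralogues with a restricted pattern. Rpl3l replaces Rpl3 in striated muscle, and Rpl39l is a paralogue of Rpl39 best known from the testis and from some tumours.

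The groups were, in order of time, 5 arrays of control flank tissue labelled day 0, 4 arrays of Ad-VEGF-A164 tissue on day 5 (B to E), 5 on day 20 and 5 on day 60. Ad-VEGF-A164 is an adenoviral vector that encodes a mouse isoform of vascular endothelial growth factor A. Nothing in the labels gives strain, sex, age or vector dose, no group with an empty vector is named, and the control stands at day 0 only, so the vector itself, the time and VEGF-A cannot be told apart. The labels do not say whether arrays came from separate animals, so each p-value speaks only of the spread from array to array. A further array, titled day 5 A but with the source name of the day 0 control, was left out of every comparison. Its first Vegfa probe set read 11111, against at most 467 on the control arrays, and its summed endothelial signal was 137995, against at most 46656.

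The values were MAS5 signals, a linear brightness per probe set that the authors had scaled on each array, so that the number of arrays limits the precision and no read depth applies. One probe set of Vegfa averaged 196 ± 156 in control tissue, 6739 ± 2584 on day 5, 9256 ± 2549 on day 20 and 463 ± 354 on day 60 (SD, n = 5, 4, 5 and 5), high in the libraries labelled day 5 and day 20. A second probe set averaged 2022 ± 479, 720 ± 66.1, 1029 ± 146 and 1750.1 ± 499 in the same order, so the probe sets of the gene disagreed. Of the 49 members, 48 had a mean signal of at least 300 and were tested. The exception was Rps16, whose only probe set of its own had a mean of 18.5. RefSeq lists 84 protein-coding genes that fit the name rule, of which 48 were members. Another 28 were found only on probe sets annotated to several genes, and 8 on no probe set of the annotation used. Fixed names that were therefore not measured here were Rpl3, Rpl10, Rpl10l and Rplp1. The remaining member, Rps4l, is a transcribed pseudogene in RefSeq. Probe sets ending _x_at or _s_at, which can bind related transcripts, read 17 of the members.

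The starts of 6 of these genes are shown because they differ in the feature that the family is known for, and because the genes differed in behaviour: Rpl35 rose on day 5, Rpl37 and Rps6 fell on day 20, Rpl38 fell on day 20 with a call that depended on single arrays, Rpl39l rose on both days, and the muscle paralogue Rpl3l had the largest negative changes against control, none of them called. Each run holds the 30 bases before and the 20 bases from the RefSeq start on, 5′ to 3′ on the gene's strand, in GRCm38.p6. Capitals mark CTTTCC, a pyrimidine stretch, or CCGGAAGT, a sequence bound by the ETS family of factors.
Rpl35, chr2:39005112-39005161, minus strand: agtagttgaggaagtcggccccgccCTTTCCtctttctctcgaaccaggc
Rpl37, chr15:5116583-5116632, plus strand: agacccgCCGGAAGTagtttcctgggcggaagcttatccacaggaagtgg
Rpl38, chr11:114668550-114668599, plus strand: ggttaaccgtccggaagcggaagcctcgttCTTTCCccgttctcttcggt
Rps6, chr4:86857348-86857397, minus strand: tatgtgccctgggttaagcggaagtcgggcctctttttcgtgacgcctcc
Rpl39l, chr16:10170198-10170247, plus strand: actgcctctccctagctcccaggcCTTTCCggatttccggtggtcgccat
Rpl3l, chr17:24727796-24727845, plus strand: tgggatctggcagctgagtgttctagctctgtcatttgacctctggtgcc

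Promoters of 43 of the 49 members stood in the RefSeq table of 27025 genes, as 300 bases from 250 before to 50 after a start. A run of 7 or more C or T on the gene's strand that touched the 10 bases either side of a start was found in 24 of the 43 members (55.8%), against 22.5% of all genes. It was present at the starts of Rpl35, Rpl38, Rps6 and Rpl39l (longest runs of 18, 10, 10 and 7 bases), and absent at those of Rpl37 and Rpl3l (longest runs of 6 and 5). In the 300 bases, read on both strands, CCGGAAGT was found in 10 members (23.3%), against 4.31% of all genes. AAGATGGC, bound by YY1, was found in 4 (9.3%), against 3.19%, and CTTTCC, which can lie within a longer pyrimidine run, in 22 (51.2%), against 29.3%. These are descriptions of letters in a window, not of binding.

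The standard ribosomal protein genes had small changes against control, on either subunit. On day 5 the median log2 change against control was 0.14 over the 22 large subunit genes and 0.07 over the 21 small subunit genes, on day 20 it was -0.12 and -0.08, and on day 60 it was 0.18 and 0.20. Over all 13595 tested genes the medians were -0.07, -0.06 and 0.01. All log2 changes are on the scale of log2(signal + 100), and the small subunit genes and the 43 standard members include the untested Rps16. In the probe set used, between 40 and 41 of the 43 standard members stayed within 0.5 of no change on each of the 3 days. Other probe sets of some of these genes differed, as given below. Among all tested genes 62.9% did so on day 5, 67.3% on day 20 and 87.1% on day 60. The median SE of a member's change was 0.15 on day 5 and 0.14 later, against 0.20 and 0.19 over all tested genes.

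**Figure D1:**
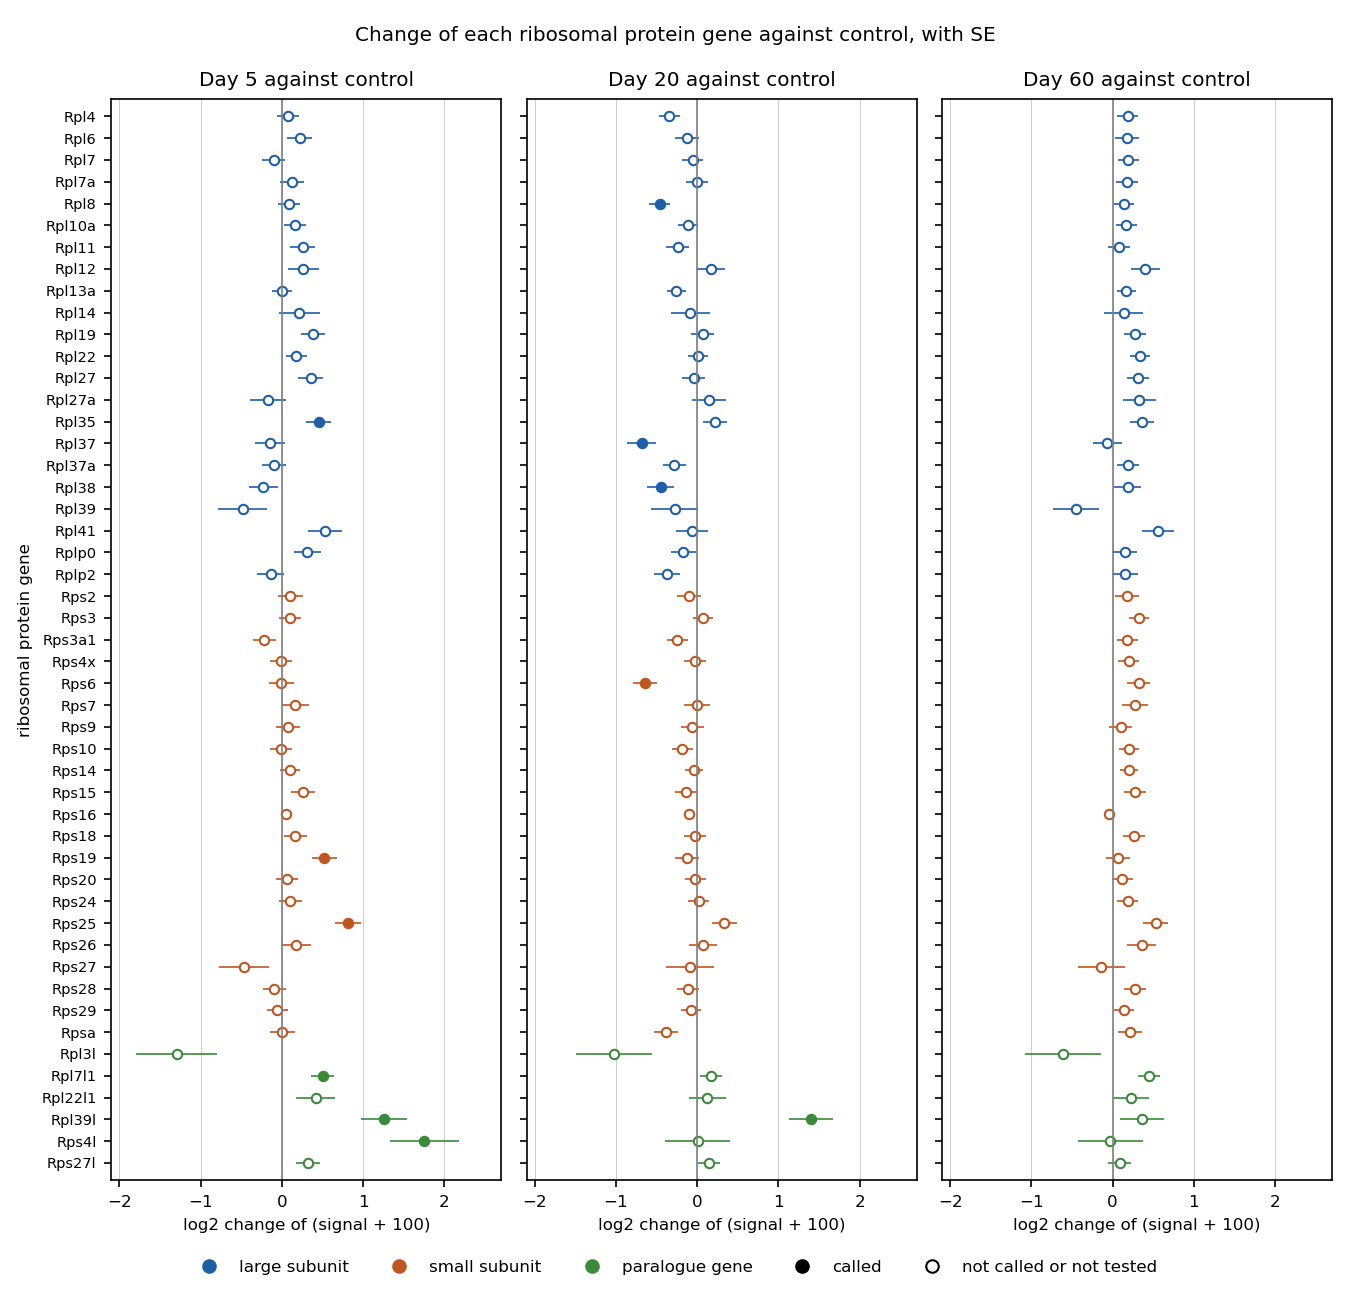
Log2 change of (signal + 100) against control for each of the 49 members on day 5, day 20 and day 60, with SE bars. Blue is the large subunit, orange the small subunit and green the paralogue genes, and filled points passed the test. Rps16 was not tested and has no bar. Most standard members lie within 0.5 of 0, and the widest departures are Rps4l, Rpl39l and Rpl3l.

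The level of the family varied between arrays of 1 group by as much as between groups. The mean log2(signal + 100) of the 43 standard members ranged over 14.50 to 15.02 in control tissue, 14.72 to 14.85 on day 5, 14.49 to 14.75 on day 20 and 14.71 to 15.15 on day 60. Control B and day 60 B had the highest means, 15.02 and 15.15. Results that rest on these arrays are given with and without them below. The subunits were also set against each other. On each array, the median change of the large subunit genes from their control means, minus that of the small, averaged -0.01 ± 0.03 in control tissue, 0.09 ± 0.04 on day 5, -0.06 ± 0.05 on day 20 and -0.01 ± 0.04 on day 60 (SD, n = 5, 4, 5 and 5). Every day 5 array, at 0.03 to 0.14, lay above every day 20 array, at -0.12 to -0.0043, while both groups overlapped the control arrays, at -0.04 to 0.04. These values per array left out the untested Rps16. From the fitted changes, with Rps16 counted, the difference was 0.07 on day 5, -0.04 on day 20 and -0.02 on day 60 against control. It was -0.12 for day 20 against day 5. The day 5 value was 0.015 with the Actb ratio described below as a covariate and 0.020 without day 5 C, and the day 20 value was 0.0051 without control B and -0.15 without day 20 C. No p is given for these differences, since the members were chosen with earlier results known.

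**Figure D2:**
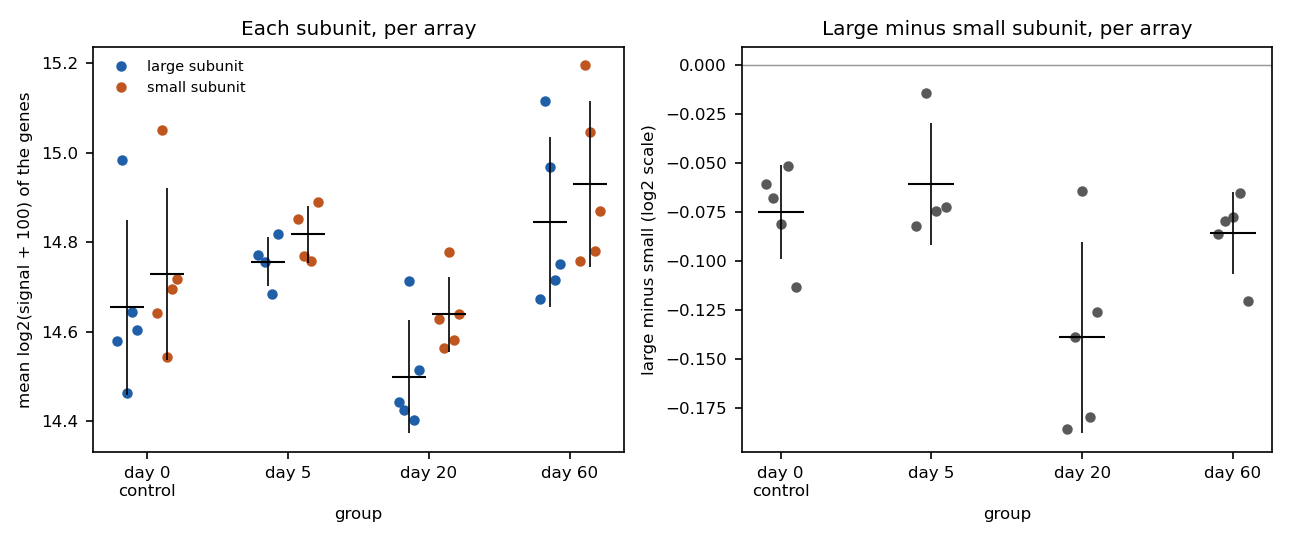
Left, mean log2(signal + 100) of the large and small subunit genes on each array, by group, with the group mean and SD. Right, large minus small per array on the same scale, where only differences between groups can be read because different probe sets are averaged. The control B and day 60 B arrays stand above their groups, and the day 20 arrays have the lowest mean in the right panel.

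On day 5 against control, 6 of the 48 tested members were called higher and 0 lower by limma at a Benjamini-Hochberg adjusted p under 0.05 over all tested genes, that is 12.5% of the members, where 34.3% of all tested genes were called, 16.8% higher and 17.5% lower. The members' share lay below that background. At an unadjusted p under 0.05 there were 11, a count for which no share of all tested genes was taken. The 6 were the paralogues Rps4l, Rpl39l and Rpl7l1 and the standard genes Rps25, Rps19 and Rpl35. Rps4l passed the signal minimum through day 5 alone, so that only the other 5 speak for the family. Without control B the count of higher members was 14, and without both control B and day 60 B it was 15. The share of all tested genes called in these fits was not taken.

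Rps4l, a transcribed pseudogene related to the small subunit gene Rps4x, had signals of 685, 1579, 757 and 807 on day 5, against 549.9, 295, 72.8, 108 and 156 in control tissue. The lowest day 5 array exceeded the highest control. The log2 change was 1.75 ± 0.42 (SE), with a limma adjusted p of 0.00351. On day 20 its signals were 75.6, 500.5, 160.2, 208 and 187, and on day 60 they were 82.0, 234, 58.7, 387 and 352. Both groups overlapped the control arrays, and the changes were 0.01 and -0.03 (adjusted p 0.992 and 0.981). The gene fell by 1.75 on day 20 against day 5 (adjusted p 0.0192) and by 1.78 on day 60 against day 5 (adjusted p 0.00455). Its mean was 382 over the 19 arrays but 228 outside day 5, so it reached the minimum of 300 through the group where it is high, and its calls involving day 5 describe that selection too. With no minimum signal the adjusted p were 0.00426 for day 5 against control, 0.0237 for day 20 against day 5 and 0.00562 for day 60 against day 5, and with a minimum of 1000 it was not tested. Its standard relative Rps4x changed by -0.01, -0.03 and 0.20 on days 5, 20 and 60 and was called in none.

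Rpl39l gave 7142, 8154, 3035 and 5227 on day 5, against 1723, 1537, 2368, 2685 and 3376 in control tissue. The lowest day 5 array lay below the highest control array. Its change was 1.26 ± 0.28, a 2.39-fold rise (adjusted p 0.00206), and it was 0.95 (adjusted p 0.0667) if the array titled day 5 A, with Vegfa and endothelial signals above those of every control array, was counted as a control. On day 20 its signals were 4113, 9444, 5214, 5768 and 7262, all above every control array, with a change of 1.40 ± 0.27 or 2.65-fold (adjusted p 0.000576). On day 60 they were 3176, 3609, 2074, 2538 and 3489, all below every day 20 array. The change was 0.36 on day 60 against control (adjusted p 0.523), and the gene fell by 1.04 on day 60 against day 20 (adjusted p 0.00836). It was the only member called against control on both day 5 and day 20. Rpl39, the standard gene of the same large subunit position at the exit tunnel, changed by -0.48, -0.28 and -0.45 and was not called. Its probe set was dim, with a mean of 1126 over the 19 arrays, against 4312 for Rpl39l.

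Of 18 tested cell cycle genes, 18 were called higher on day 5, 13 on day 20 and 1 on day 60. Rps4l was called on the first of these days alone, but it passed the signal minimum through day 5 alone. Its call therefore cannot be set beside this time course. Rpl39l averaged 5889 on day 5 and 6360 on day 20. The summed signal of that list was 35906 to 76771 in control tissue, 126111 to 162387 on day 5, 91578 to 101672 on day 20 and 58264 to 96076 on day 60. Of 17 tested macrophage markers, 14 were higher and 1 lower on day 5, with summed signals of 281708 to 393705, against 68701 to 149121 in control tissue. Of 20 tested endothelial markers 18 were higher and 1 lower on day 5, and 19 were higher on day 20, with summed signals of 38692 to 46656 in control tissue, 131607 to 146220.2 on day 5 and 110972 to 176738 on day 20. Lower on day 5 were 9 of 9 tested glandular epithelium markers, with summed signals of 7749 to 11273, against 65737 to 85526 in control tissue, and 13 of 15 adipocyte markers, with 164143 to 194871, against 327264 to 752228. None of the markers in these lists was at 0 on any array. In bulk tissue, more cells of a type and more RNA per cell cannot be told apart, and the part of cell make-up in the paralogues' changes was not tested.

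Rpl7l1, a paralogue of Rpl7 with a role in ribosome assembly, was also called. It measured 5129.8, 7038, 5039.7 and 4531 on day 5, against 3467, 5095, 3371, 3848 and 3249 in control tissue. Control B lay among the day 5 arrays and the other controls below them. The change of 0.50 ± 0.14 (adjusted p 0.0111) lost its call without day 5 C (adjusted p 0.0572), and was 0.25 (adjusted p 0.0851) in the mean over its probe sets. Rpl7 itself changed by -0.10. The changes of the remaining paralogues on day 5 were 0.42 for Rpl22l1, the paralogue of Rpl22, and 0.32 for Rps27l, a p53 target gene (adjusted p 0.191 and 0.0929).

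**Figure D3:**
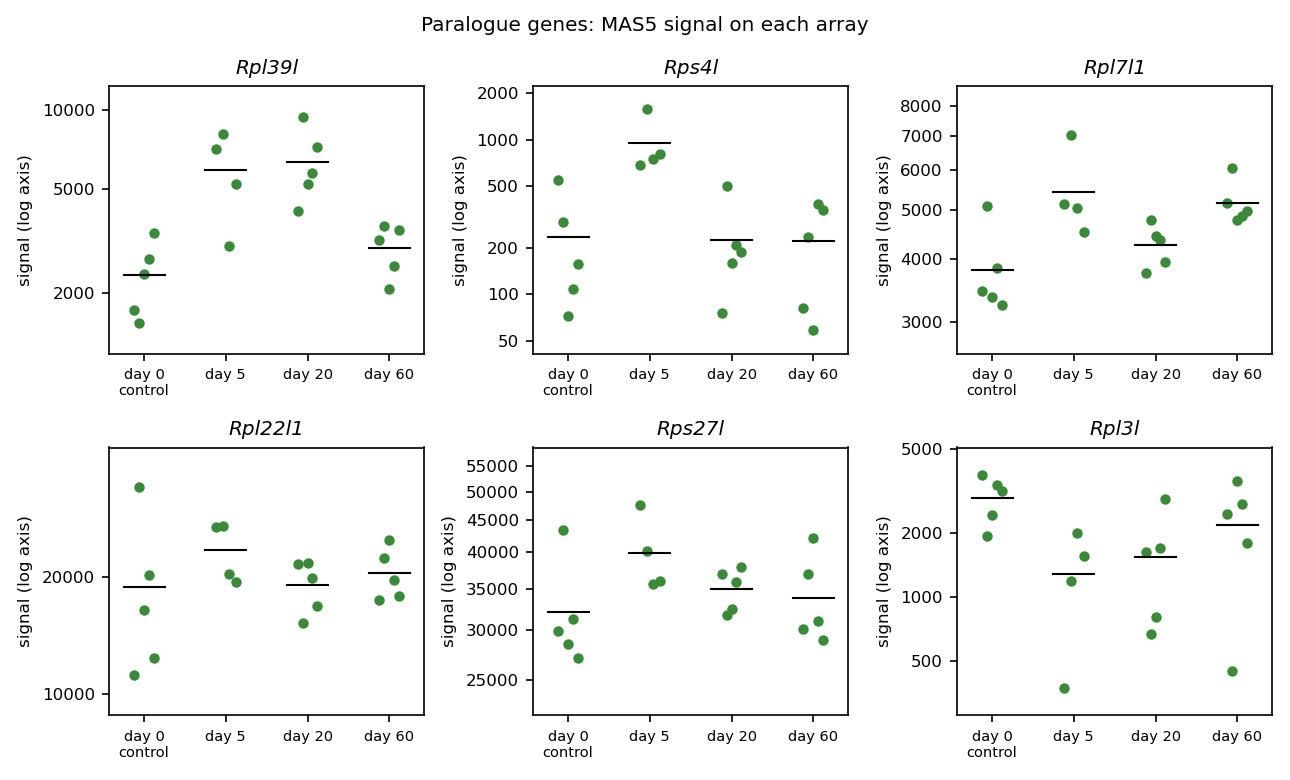
MAS5 signal of each paralogue gene on each array, on a log axis, by group in order of time, with the mean as a line. Rps4l is highest on the 4 day 5 arrays, Rpl39l is high on day 5 and day 20, and Rpl3l has low arrays in every VEGF-A group but none below 1947 in control tissue.

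Among the standard genes, Rps25, a small subunit protein that some viral and cellular mRNAs need for initiation at internal sites, had the largest rise. Its signals were 8076, 5610.4, 6049 and 6357 on day 5, against 2478, 5103, 4090.3, 3868 and 3130.1 in control tissue, with no overlap. The change was 0.82 ± 0.16 or 1.76-fold (adjusted p 0.000792). It was 0.33 on day 20 and 0.53 on day 60, which were not called (adjusted p 0.111 and 0.0936). Rps25 was read by 1 probe set only, of the plain _at kind.

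Rps19, a small subunit protein needed for maturation of the small subunit RNA and mutated in Diamond-Blackfan anaemia, was higher too. It measured 27864, 26312, 23599 and 24860.4 on day 5, against 16493, 25314, 14691, 16139 and 18055 in control tissue. The other 4 controls lay below every day 5 array, and control B, at 25314, lay among them. The change was 0.52 ± 0.15 (adjusted p 0.0136). On day 20 its signals were 16309.7, 16379, 19045, 16088 and 14163, all below every day 5 array, and the gene fell by 0.65 on day 20 against day 5 (adjusted p 0.0179).

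Rpl35, which lies near the exit of the peptide tunnel in the large subunit, had signals of 83498, 74916, 71224 and 78579.6 on day 5, against 46577, 89962, 47453, 56429 and 49842 in control tissue. Control B alone lay above the day 5 arrays. The change was 0.45 ± 0.16 (adjusted p 0.0316), 4 of its other probe sets gave 0.36 to 0.52, and a dim one with a mean of 754 gave -0.53. In the mean over all of them it was 0.27 (adjusted p 0.148), and with the Actb ratio described below as a covariate 0.40 (adjusted p 0.0783). Leaving out any of control A, C, D or E or day 5 B, C or E ended the call, with adjusted p up to 0.0844. Without control B the change was 0.62 (adjusted p 0.000318).

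The muscle paralogue Rpl3l gave 375, 1189, 2008 and 1562 on day 5, against 3773, 1947, 2438, 3378 and 3179 in control tissue. Of the day 5 arrays, 3 lay below every control array. The change of -1.29 ± 0.50 had an adjusted p of 0.0515 and was not called. It was -1.02 on day 20 and -0.61 on day 60 (adjusted p 0.108 and 0.541), with the lowest array of day 60, 60 B, at 450.4. Of 20 tested skeletal muscle markers, 11 were called lower on day 5, 4 on day 20 and 0 on day 60. None was called higher on these days. Their summed signal was 1013591 to 1610351 in control tissue, 285704 to 1003935 on day 5, 535520 to 1294679 on day 20 and 260475 to 1992516 on day 60, and none was at 0. The part of muscle content in the signal of Rpl3l was not tested.

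On day 20 against control the standard members that passed the test were all lower. Of the 48 tested members 4 were called lower and 1 higher, 10.4% of them, where 30.1% of all tested genes were called, 14.5% lower and 15.6% higher. At an unadjusted p under 0.05 there were 11, again with no share of all tested genes to set beside it. Rpl37, Rpl8 and Rpl38 of the large subunit and Rps6 of the small subunit were lower, and Rpl39l was the higher one. Over the 43 standard members, 33 had a negative and 10 a positive change. The count of lower members was 8 without control C and 8 without day 60 B, fits in which all tested genes were not counted. All 9 tested glandular epithelium markers were lower on day 20 as well, with summed signals of 6166 to 10958, against 65737 to 85526 in control tissue. So were 13 of 15 adipocyte markers, with 168587 to 211861, against 327264 to 752228. Other lists went otherwise on day 20: 19 of 20 endothelial markers and 13 of 18 cell cycle genes were higher. Of 17 macrophage markers 8 were higher and 2 lower, and of 10 fibroblast markers 3 were higher and 3 lower. Lower were 5 of 11 keratinocyte and 4 of 20 skeletal muscle markers, and 1 of 3 lymphocyte markers was higher. The ratio of the 3′ to the 5′ probe set of Actb, which is higher in degraded RNA, was 2.60 to 7.56 on day 20, against 4.15 to 9.12 in control tissue, and with it as a covariate 3 members were lower and 1 higher. The part of cell make-up in these changes was not tested.

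Rps6, the small subunit protein that the S6 kinases phosphorylate downstream of mTORC1, measured 3971, 3526, 5570.3, 4023 and 2971 on day 20, against 6194, 7796, 5581, 5897 and 5716 in control tissue. Every day 20 array lay below every control array, the nearest of them, day 20 C, by a narrow margin. The change was -0.64 ± 0.14, or 1.56-fold lower (adjusted p 0.00212). A second probe set with a mean of 352 changed by -0.05, and the mean over both gave -0.35 (adjusted p 0.124).

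Rpl37, a zinc-binding protein of the large subunit, had 3303, 3417, 5233, 6459 and 4859 on day 20, against 6612, 9761, 8032, 7299 and 5448 in control tissue. Only day 20 D reached into the control range. The change was -0.68 ± 0.18, or 1.60-fold lower (adjusted p 0.00682). Its only probe set ends in _x_at and can bind related transcripts. Rpl8, a large subunit protein close to the peptidyl transferase centre, had 12615, 14038, 15339, 12023 and 12008 on day 20, against 18495, 21239, 14587, 16875 and 20355 in control tissue. Day 20 C alone lay above the lowest control, and the change was -0.46 ± 0.13 (adjusted p 0.00873).

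Rpl38, which regulates the translation of Hox mRNAs in the mouse embryo, was lower by a smaller margin. It measured 79498, 77991, 90055, 76764 and 94896 on day 20, against 123599, 122903, 84246, 112276 and 135786 in control tissue, where only control C lay within the day 20 range. The change was -0.45 ± 0.16 (adjusted p 0.0431), and the call was lost when any 1 of 9 arrays was left out (control A, B, D or E, day 5 D, or day 20 A, B, C or D), with adjusted p up to 0.106. With the Actb ratio as a covariate the change was -0.30 (adjusted p 0.196). Rpl38, too, was read only by a probe set ending _x_at. The P stalk genes, whose products recruit elongation factors to the large subunit, were not called on day 20: Rplp2 changed by -0.37 and Rplp0 by -0.17 (adjusted p 0.0842 and 0.442). The change of Rpsa, a small subunit protein also known as the laminin receptor, was -0.38 (adjusted p 0.0553).

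Against day 5, day 20 was lower for 39 of the 43 standard members, though 4 of the 48 tested members passed the test, all lower (8.33%, where 5.3% of all tested genes were called, 3.05% higher and 2.25% lower). These were Rps4l, Rps19, Rps6 and Rpl8. Rps4l passed the signal minimum through day 5 alone, and of the 42 tested standard members 3 were called (7.14%). Rps6 had 6286, 6923, 5938 and 5591 on day 5, just above the highest day 20 array, and its change was -0.64 ± 0.15 (adjusted p 0.0172). For Rpl8 the day 5 signals were 18839, 21918, 19474 and 17341, all above every day 20 array, and the change was -0.55 ± 0.13 (adjusted p 0.0181). Without day 5 C none of the 4 was called (adjusted p up to 0.0799). Rpl8 also lost its call without day 5 D or day 20 D, Rps19 without day 5 B and Rps4l without day 20 A. Without day 20 C 7 members were called lower.

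On day 60 against control no member was called in either direction by limma, where 1.13% of all tested genes were called, 0.368% higher and 0.765% lower, so a count of 0 of 48 is near that background. At an unadjusted p under 0.05 there were 9, but the share of all tested genes at that threshold was not taken. Of the 43 standard members 39 had a positive change, with medians of 0.18 for the large and 0.20 for the small subunit. Without control B 7 members were called higher, and without control B and day 60 B it was 3. All tested genes were not counted in these fits, so these counts have no background beside them. The largest of the standard members' changes was 0.56 ± 0.20 for Rpl41, the smallest protein of the large subunit (adjusted p 0.155), with every day 60 array above the controls, the lowest by a narrow margin.

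Day 60 against day 20 held the most calls. Of the 48 tested members 14 were called higher and 1, Rpl39l, lower, 31.2% of them, where 22.1% of all tested genes were called, 11.0% higher and 11.2% lower. All 14 were standard genes, 8 of the large subunit (Rpl38, Rpl41, Rpl37, Rpl8, Rpl4, Rplp2, Rpl37a and Rpl13a) and 6 of the small subunit (Rps6, Rpsa, Rps3a1, Rps15, Rps28 and Rps10). Of the 43 standard members 41 had a positive change, with medians of 0.32 for the large and 0.26 for the small subunit, against 0.03 over all tested genes. The 4 members called lower on day 20 against control were among the 14, as they share the day 20 arrays.

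Rps6 had the largest change, with 6624, 8892, 7214, 8302 and 7929 on day 60, against 3971, 3526, 5570.3, 4023 and 2971 on day 20. The groups did not overlap, and the change was 0.96 ± 0.14 or 1.95-fold (adjusted p 7.82e-05). The mean over its 2 probe sets gave 0.37 (adjusted p 0.124). Rpsa had 69539, 106499, 61421, 62488 and 62729 on day 60, against 44211, 44976, 56865, 42740.0 and 46035 on day 20, also with no overlap, and changed by 0.60 ± 0.15 (adjusted p 0.00616). Day 60 B stood far above the other 4 arrays in this gene. The mean over its probe sets gave 0.20 (adjusted p 0.403).

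Rpl8 had 16407, 23754, 21593, 20659.7 and 18729 on day 60, all above its day 20 arrays, and changed by 0.61 ± 0.13 (adjusted p 0.00164). Rpl4, which lines the peptide tunnel, had 53456, 68057, 71888, 52386 and 54987 on day 60, against 42400.3, 37619.8, 48014, 35994 and 43678 on day 20, with no overlap and a change of 0.53 ± 0.13 (adjusted p 0.00693). For Rpl38 the day 60 signals were 136639, 186330.3, 133084, 118207 and 92509.7, of which only 60 E lay within the day 20 range, and the change was 0.64 ± 0.16 (adjusted p 0.00828). Rpl37 changed by 0.62 ± 0.18 (adjusted p 0.0168). The acidic stalk gene Rplp2 rose by 0.52 and Rplp0, its anchor on the ribosome, changed by 0.32 (adjusted p 0.0227 and 0.161). The other called members rose by 0.38 to 0.62, with adjusted p of 0.0122 to 0.0449.

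**Figure D4:**
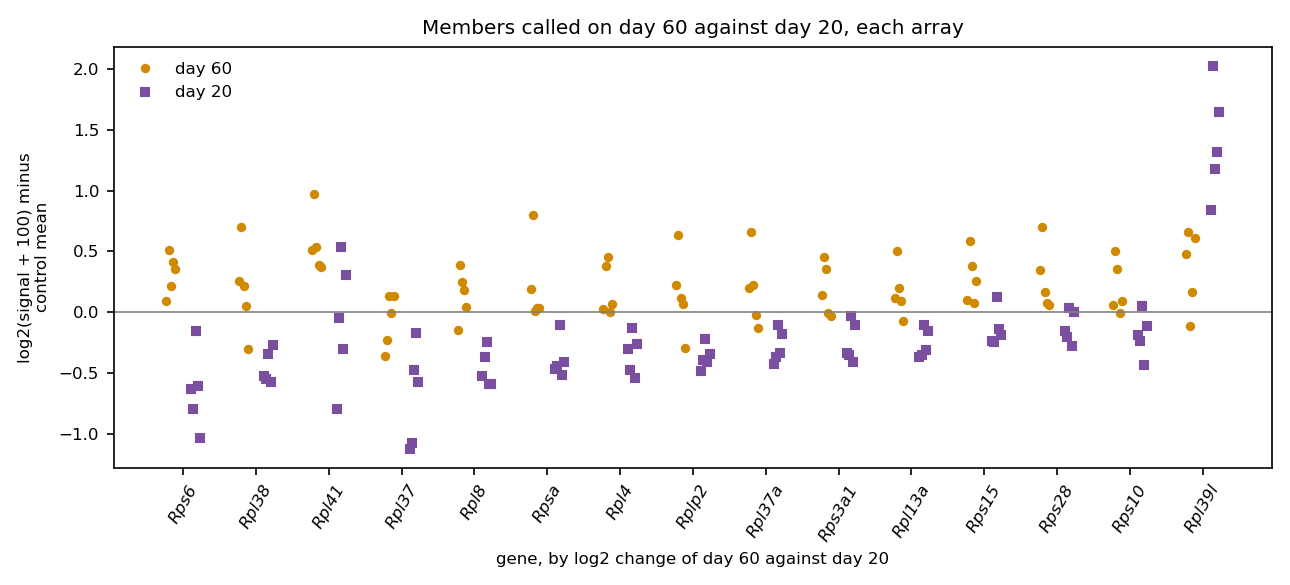
Each array of day 60 (circles) and day 20 (squares) for the 15 members called in this comparison, as log2(signal + 100) minus the control mean of the gene. For the 14 higher members most day 20 arrays lie below 0 and most day 60 arrays above it, and Rpl39l runs the other way.

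RNA quality and cell make-up differed between the same arrays. The Actb ratio was 4.32 to 14.0 on day 60, against 2.60 to 7.56 on day 20. With that ratio as a covariate 10 members were higher and 1 lower, and 6 of the 11 were among the 15 called without it. Rpl38 then changed by 0.44 and Rpsa by 0.50 (adjusted p 0.0977 and 0.0521), while Rpl37 stayed called at 0.73 (adjusted p 0.0191). Of 9 tested glandular epithelium markers 8 were higher on day 60, with summed signals of 24970 to 63449, against 6166 to 10958 on day 20. Of 11 tested keratinocyte markers 7 were higher, with 87921 to 187105, against 15234 to 117740. Of 15 tested adipocyte markers 9 were higher and 1 lower. Of 20 endothelial markers 17 were lower on day 60, with summed signals of 36616 to 67309, against 110972 to 176738 on day 20, and of 18 cell cycle genes 6 were lower, with 58264 to 96076, against 91578 to 101672. No marker was at 0 on any array, and the part of cell make-up in the result was not tested. A call was kept without any 1 array by 8 of the 15 members (Rps6, Rpsa, Rpl8, Rpl4, Rpl38, Rpl37a, Rpl13a and Rpl39l). The count of higher members was 7 without day 20 A, 8 without day 20 B, 9 without day 20 D and 8 without day 60 B.

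On day 60 against day 5, 1 member was called higher and 3 lower (8.33%, where 24.4% of all tested genes were called, 12.2% in each direction). Rps3a1, a small subunit protein at the mRNA exit, had 76016, 94279, 88025, 68730.2 and 67353 on day 60, against 56476, 61102, 57781 and 61804 on day 5, with no overlap and a change of 0.40 ± 0.14 (adjusted p 0.0422). This call was lost without any 1 of 9 arrays (control D, any day 5 array, day 20 A, or day 60 A, B or C), with adjusted p up to 0.102. Rps4l, Rpl39l and Rps19 were lower, by -1.78 ± 0.42, -0.90 ± 0.28 and -0.46 ± 0.15 (adjusted p 0.00455, 0.0267 and 0.0368). Rps4l passed the signal minimum through day 5 alone. Of the 42 tested standard members 1 was higher and 1 lower (4.76%). Rpl39l lost its call without day 5 B, day 5 C, day 60 C or day 60 D, and Rps19 without day 5 B, C or E or day 60 A or D (adjusted p up to 0.106 and 0.1). The count of lower members was 1 without day 5 B, day 5 C or day 60 D. The count of higher members was 2 without day 60 E.

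**Figure D5:**
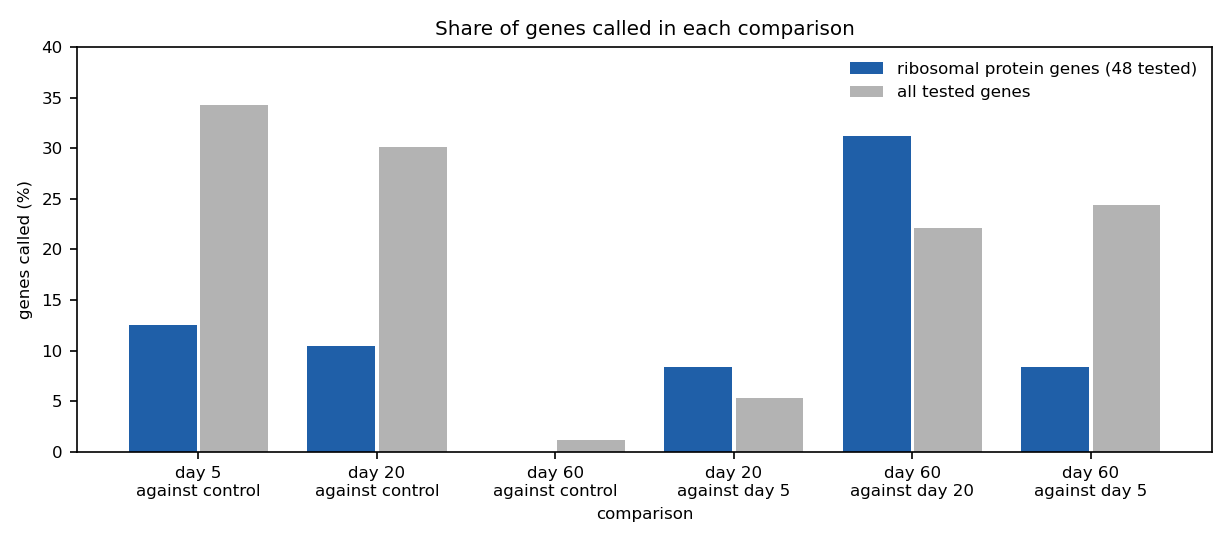
Percent of the 48 tested ribosomal protein genes (blue) and of all 13595 tested genes (grey) that passed the test in each comparison, either direction. The members' bar is below that of all genes against control on each day and on day 60 against day 5, and above it for day 20 against day 5 and day 60 against day 20. For day 20 against day 5 the members' bar is 4 genes. Among them is Rps4l, which passed the signal minimum through day 5 alone.

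Where a gene had several probe sets with a mean of at least 300 (22 genes, 71 probe sets), these differed by a median of 0.25 in the log2 change of day 5 against control and had the same sign in 11 genes. The widest gap was in Rpl22, a large subunit protein that in human cells also binds viral RNA: the probe set used changed by 0.18, 0.01 and 0.34 on days 5, 20 and 60, and another, with a mean of 4399, by -1.40, -1.17 and -0.01. For Rpl13a, which in human cells joins a complex that silences inflammatory mRNAs, the probe set used changed by 0.00 on day 5 and another by 0.97. In Rps6 the gap was 1.19 for day 60 against day 20. A single value per gene therefore stands for a probe set, not for all transcripts of the gene. In all, 29 of the 49 members were called in none of the 6 comparisons. Among them Rps29, with signals of 91900.4 to 159159 on all 19 arrays, changed by -0.06, -0.08 and 0.14, Rpl14 by 0.21, -0.08 and 0.14, and Rps27, a zinc-finger protein and the relative of Rps27l, by -0.46, -0.09 and -0.14. The probe set of Rps27 had a mean of 1289, against 34937 for the _x_at probe set of Rps27l.

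The genes that build ribosomes were a further list. Of 67 tested genes of ribosome biogenesis, 10 were higher and 2 lower on day 5, 1 was higher and 9 lower on day 20, 1 was higher on day 60, and 18 were higher and 0 lower on day 60 against day 20. These are 17.9%, 14.9%, 1.49% and 26.9% of the list, where 34.3%, 30.1%, 1.13% and 22.1% of all tested genes were called. Their median changes in these comparisons were 0.15, -0.13, 0.10 and 0.18, against -0.07, -0.06, 0.01 and 0.03 over all tested genes. Nop56, a core protein of the box C/D particles that methylate ribosomal RNA, averaged 3845 ± 490 on day 5, against 2289 ± 640 in control tissue (SD, n = 4 and 5), a rise of 0.75 (adjusted p 0.00447). Imp4, of the small subunit processome, rose by 0.67. On day 20 Wdr43, also of the processome, averaged 3166 ± 205, against 5628 ± 621 in control tissue (n = 5 each), and Rrp12, a subunit export factor, averaged 232 ± 166, against 574 ± 246. The changes were -0.81 and -1.11 (adjusted p 5.11e-05 and 0.0105).

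Of 12 tested genes of RNA polymerase I and its factors, which transcribe ribosomal RNA, 1 was lower on day 5 (Polr1c, -0.55), 1 lower on day 20 (Ubtf, -0.35) and 0 were called on day 60, a share of 8.33% on day 5 and on day 20. Of 14 tested elongation factors and other genes with TOP mRNAs, 2 were higher on day 5 and 2 were higher and 6 lower on day 20, shares of 14.3% and 57.1% against 34.3% and 30.1% of all tested genes. Eef2, which moves the ribosome along the mRNA, averaged 9959 ± 1071 on day 20, against 15747 ± 3585 in control tissue, and fell by 0.63 (adjusted p 0.00331). Vim, the intermediate filament gene of mesenchymal cells, was among the 2 higher genes on each day, at 1.11 and 1.02. Nap1l1, a histone chaperone, rose by 0.92 on day 5. Of 31 tested initiation factors, 3 were higher and 4 lower on day 5, and 2 higher and 7 lower on day 20. Their shares called, 22.6% and 29%, lay below and near those of all tested genes. Eif4e2, a cap-binding protein, rose by 1.08 on day 5 and 0.64 on day 20. Eif4a1, the helicase of the cap complex, rose by 0.75 on day 5, and Eif2b4, a subunit of the exchange factor for eIF2, changed by -0.84 on day 20 (adjusted p 0.00317).

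Regulators of the family were measured too. Of 16 tested, 3 were higher and 1 lower on day 5, and 2 higher and 3 lower on day 20, or 25% and 31.2% of the list, the first below and the second near the share of all tested genes. Larp1 averaged 5971 ± 617 on day 5, against 8431 ± 1246 in control tissue, and fell by 0.48 (adjusted p 0.0121). Mdm2, the ubiquitin ligase that free Rpl5 and Rpl11 bind and inhibit, rose by 0.75 on day 5 and 0.63 on day 20. Myc, a transcription factor that drives ribosomal protein genes, averaged 1112 ± 251 on day 20, against 1737 ± 485 in control tissue, and fell by 0.59 (adjusted p 0.0274). Day 60 against control called none of the 16.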

How the data were processed

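Flank tissue RNA was measured on 20 Affymetrix Mouse 430 2.0 arrays, of which 19 entered the comparisons. The authors deposited intensity values, MAS5 signals with a scaling factor of 1500, per the labels. The submitters' processing notes name GCOS 1.3. Of 45101 probe sets 34958 had 1 symbol, 932 several and 9211 none in the platform annotation. Symbols were updated through the RefSeq gene table of GRCm38.p6, in which 34754 matched. Where a gene had several probe sets, the one of highest mean signal was used.

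Signals were taken as log2(signal + 100). Genes whose mean reached 300 were fitted with limma 3.58.1 (lmFit and eBayes with a trend) in R 4.3.3, with 4 group means in 1 fit, and p-values were adjusted by Benjamini-Hochberg over all 13595 tested genes at 0.05. Comparisons with control share its 5 arrays, and comparisons that name a day share that day's arrays. In tests on simulated data, 24% of genes changed 1.5-fold and 62% of genes changed 2-fold were recovered for day 5 against control, and 35% and 66% for day 20 against control (13436 genes each). For day 60 against control these were 31% and 71% (13441 genes). Each simulation changed 100 genes at each fold, drawn from all tested genes rather than from the members. In the data 4657 genes were called on day 5, 4096 on day 20 and 154 on day 60 against control. With few changed genes the Benjamini-Hochberg cutoff is stricter, so the recovery for days 5 and 20 cannot be carried over to the data. No 2 arrays held identical values, and signals carry no read depth.

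The members and gene lists were chosen with earlier results of these data known. Named genes were the called members with the largest changes against control, the paralogues with their standard relatives, the P stalk genes, Rpsa, Rps6, the members with the highest and lowest signals, and the 2 called genes of each ribosome or translation list with the largest changes. Genes named for other comparisons were chosen after their values were seen. Alternatives changed the pseudocount, the minimum signal, the normalization, the probe sets, the fit and the arrays. Letters in the titles were not used as pairs in the main fit. The 27 same-letter pairs had correlations of -0.27 to 0.35 (median 0.02). Different letters gave -0.45 to 0.40 over 108 pairs (median -0.03). These values cannot exclude a pairing of some of the arrays.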

Additional observations from a re-analysis of the deposited data

Results flagged for a closer look

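Of 100 groups of arrays checked for a value far from the rest, 6 had one, where chance gives about 1 in 20. On the log2(signal + 100) scale, Rpl14 was highest on control B at 10.74, and Rpl35 was lowest on day 20 B at 15.90. Rpl39 was lowest on day 20 D at 9.31 and on day 60 A at 9.31. Rpsa was highest on day 20 C at 15.80 and on day 60 B at 16.70.

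Of the 10 members called against control on day 5 or day 20, 7 were also called between days by limma. The comparisons share arrays, so a gene called in one is more readily called in another, and the share over all tested genes was not taken. Rps4l passed the signal minimum through day 5 alone. On day 20 against day 5 the log2 differences were -0.55 for Rpl8, -0.65 for Rps19, -1.75 for Rps4l and -0.64 for Rps6 (adjusted p 0.0181, 0.0179, 0.0192 and 0.0172). On day 60 against day 20 they were 0.62 for Rpl37, 0.64 for Rpl38, -1.04 for Rpl39l, 0.61 for Rpl8 and 0.96 for Rps6 (adjusted p 0.0168, 0.00828, 0.00836, 0.00164 and 7.82e-05). On day 60 against day 5 they were -0.90 for Rpl39l, -0.46 for Rps19 and -1.78 for Rps4l (adjusted p 0.0267, 0.0368 and 0.00455).

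The array titled day 5 A, whose source name gives the day 0 control, entered no comparison. Its signals were 8281 for Rpl39l, 7410.4 for Rps25 and 736 for Rps4l, each above the highest control array. Rps4l passed the signal minimum through day 5 alone. The other members called on day 5, Rpl35, Rpl7l1 and Rps19, read 83280, 4628 and 23697 on this array. These lay below control B, at 89962, 5095 and 25314.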

How the results depend on the processing

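Counts of members called depended on the arrays and the normalization more than the direction of single genes did. On day 5 against control, 6 higher members became 11 with quantile normalization, 12 with array weights, 10 with day 5 A counted as day 5 and 15 without control B and day 60 B (chosen after seeing the data). The count of 0 lower became 1 with a pseudocount of 500, a minimum of 1000, array weights, a fit of the compared groups, the replicate block by letter, day 5 A as day 5, or without both B arrays. On day 20, 1 higher became 3 with array weights or without both B arrays. The 4 lower became 10 with quantile normalization, 7 with array weights and 2 without _x_at and _s_at probe sets. Rpl37 and Rpl38 have only an _x_at probe set each, so both were absent from that last fit. With quantile normalization the lower count over all tested genes went from 1974 to 1900. On day 60, 0 higher became 3 without both B arrays.

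On day 20 against day 5, 4 lower became 11 with quantile normalization, 12 with array weights, 10 in a fit of the compared groups, and 7 with day 5 A as day 5 or without both B arrays. Over all tested genes the lower count went from 306 to 298 with quantile normalization. On day 60 against day 20, 14 higher became 7 when arrays were centred on the 75th percentile, while the count over all tested genes went from 1489 to 1223. For day 60 against day 5 that centring took the higher count over all tested genes from 1654 to 1399. On day 60 against day 5, 1 higher became 3 with day 5 A as day 5 and 0 with no minimum, that centring, no trend, array weights, the compared groups alone, the replicate block, day 5 A as control, or without both B arrays, and 3 lower became 1 with day 5 A as control. Rps29 on day 5 turned to 0.25 with quantile normalization (adjusted p 0.0413), and Rpl22 on day 20 to -0.46 in the mean over probe sets (adjusted p 0.00742). The causes were not tested.

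With each array left out in turn, higher and lower counts ranged over 4 to 14 and 0 to 1 on day 5, 1 to 3 and 3 to 8 on day 20, and 0 to 7 and 0 on day 60. They ranged over 0 and 0 to 7 for day 20 against day 5, 7 to 16 and 1 for day 60 against day 20, and 0 to 2 and 1 to 3 for day 60 against day 5. The 0 lower on day 5 became 1 without control B, day 5 D, day 20 B, day 20 E, day 60 B or day 60 C. The large minus small difference ranged over 0.020 to 0.10, -0.15 to 0.0051, -0.04 to -0.01, -0.19 to -0.10, 0.03 to 0.09 and -0.13 to -0.032 in the same order. Against the fitted values of 0.07, -0.04, -0.02, -0.12, 0.06 and -0.05, it moved by more than its SD of 0.04 between arrays in these other cases. It was 0.015 on day 5 with the Actb ratio as a covariate, and 0.0051 on day 20 without both B arrays. On day 60 it was -0.064 without _x_at and _s_at probe sets and 0.025 in the mean over probe sets. For day 20 against day 5 it was -0.18 with array weights. For day 60 against day 5 it was -0.00743 with quantile normalization, -0.12 without _x_at and _s_at probe sets, -0.0080 in the mean over probe sets and 0.00753 with the Actb ratio. Centring on the 75th percentile moved the share of higher genes among all called on day 60 to 22.6%, against 32.5%. Only 3 of 19 arrays correlated best with an array of their own letter. The control stands at day 0 alone, and the number of arrays limits what small changes could be called.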
